A study of Mus musculus with 3 samples.

Results

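Of the 25330 Foxf2-FLAG peaks that the deposited tongue table lists on mouse chromosomes 1 to 19, 2761 lay with their midpoint more than 300 kb from the transcription start site of every protein-coding gene. These remote peaks made up 10.9% of the autosomal list (exact binomial 95% interval 10.5 to 11.3%, counting error only), and 25707 peaks were listed in all. Start sites were those of protein-coding transcripts in the GENCODE M21 basic annotation of mm10. The distance alone chose the members, so neither the score of a peak nor its sequence entered the choice.

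The tissue was the tongue of mouse embryos at E12.5, homozygous for an endogenous Foxf2 allele carrying a 3xFLAG tag that was introduced with CRISPR/Cas9 (Foxf2FLAG/FLAG). Chromatin was precipitated with anti-FLAG antibody for 2 ChIP libraries, and 1 library was an input without antibody that served as the control for peak calling. The labels mention 75 dissected tongues without saying whether they served each library or all. All 3 libraries carried the tag, so no untagged tissue was available as a control, and whole tongues mix several cell types. The table holds 1 list of peaks with no columns for single libraries. The depth is therefore unknown, the spread between the 2 ChIP libraries could not be measured, and every p-value below takes peaks, not embryos, as its units.

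Foxf2 is a forkhead transcription factor of mesenchymal cells, and mice without it have a cleft palate and a malformed tongue. Forkhead proteins bind DNA through a winged-helix domain that recognises a short AT-rich core. Gene deserts are long stretches without protein-coding genes. Some of them, such as the desert beside Sox9, are known to hold enhancers that act on developmental genes from far away, and a distant enhancer need not act on the nearer of its flanking genes. A peak of factor binding does not itself show which gene, if any, it serves.

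The 8 remote peaks with the highest scores are printed to show what such a site looks like at the level of bases. Each line gives the protein-coding genes on the left and right, the mm10 coordinates of the central 200 bp and the plus strand from 5′ to 3′ of the reference genome. Capitals mark each match to the forkhead core on either strand. The core was ATAAACA or ATAAATA or GTAAACA or GTAAATA, and the strict forkhead sequence was GTAAACA alone, which is part of the core set.
Ccdc171-Bnc2, chr4:84064080-84064279: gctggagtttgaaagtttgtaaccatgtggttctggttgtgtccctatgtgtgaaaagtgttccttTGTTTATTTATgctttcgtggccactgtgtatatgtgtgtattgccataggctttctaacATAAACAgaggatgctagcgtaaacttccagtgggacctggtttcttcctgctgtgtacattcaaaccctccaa
Lrrn3-Dnajb9, chr12:42972855-42973054: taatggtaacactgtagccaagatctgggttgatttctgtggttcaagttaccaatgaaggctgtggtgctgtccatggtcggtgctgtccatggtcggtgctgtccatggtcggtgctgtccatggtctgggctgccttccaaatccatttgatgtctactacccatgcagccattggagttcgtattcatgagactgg
Gpc6-Dct, chr14:117351416-117351615: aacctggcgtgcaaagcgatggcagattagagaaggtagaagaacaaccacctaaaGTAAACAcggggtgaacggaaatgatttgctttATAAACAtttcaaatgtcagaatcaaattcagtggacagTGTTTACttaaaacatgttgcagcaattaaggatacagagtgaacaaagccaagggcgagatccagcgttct
Auts2-Castor2, chr5:133167012-133167211: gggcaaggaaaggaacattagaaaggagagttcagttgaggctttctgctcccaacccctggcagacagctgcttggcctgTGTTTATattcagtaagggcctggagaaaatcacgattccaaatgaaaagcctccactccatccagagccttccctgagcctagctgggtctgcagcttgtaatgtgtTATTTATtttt
Klf4-Gm26657, chr4:56222024-56222223: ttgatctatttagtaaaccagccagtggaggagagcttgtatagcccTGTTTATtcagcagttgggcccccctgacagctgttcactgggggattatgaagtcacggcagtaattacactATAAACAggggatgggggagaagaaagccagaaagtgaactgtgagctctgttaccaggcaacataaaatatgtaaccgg
Kif26b-Smyd3, chr1:179126437-179126636: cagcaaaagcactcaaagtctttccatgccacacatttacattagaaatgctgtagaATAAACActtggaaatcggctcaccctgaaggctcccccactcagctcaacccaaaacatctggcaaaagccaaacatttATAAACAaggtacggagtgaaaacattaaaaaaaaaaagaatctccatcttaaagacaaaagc
Lrmda-Kcnma1, chr14:23292960-23293159: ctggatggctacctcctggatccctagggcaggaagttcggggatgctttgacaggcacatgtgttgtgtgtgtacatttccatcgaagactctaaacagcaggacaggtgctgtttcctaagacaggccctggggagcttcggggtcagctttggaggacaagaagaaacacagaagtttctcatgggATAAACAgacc
Rspo3-Cenpw, chr10:29897694-29897893: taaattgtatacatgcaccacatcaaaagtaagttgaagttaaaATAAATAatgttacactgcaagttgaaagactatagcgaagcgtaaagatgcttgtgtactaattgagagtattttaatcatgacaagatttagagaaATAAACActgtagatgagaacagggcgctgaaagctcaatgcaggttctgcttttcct

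7 of these windows held 1 to 3 cores, and the window between Lrrn3 and Dnajb9 held none. The longer run of capitals in the Ccdc171-Bnc2 window is a pair of overlapping matches. The window inside Gpc6 held the strict sequence on both strands. The core in the Lrmda-Kcnma1 window lay 93 bp from the peak centre, whereas the nearest core of the Gpc6 window lay 7 bp from it. The window without a core held a tandem repeat in its place, with 4 full copies of a 16-base unit over 64 bases, shown here as its unit: ggtgctgtccatggtc.

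The highest-scored remote peak, chr4:84064073-84064285, had a score of 169.7, which ranked 16 among all autosomal peaks. It lay outside every gene, 539 kb from the start of Ccdc171 and 611 kb from that of Bnc2, which encodes the zinc finger protein basonuclin-2. The next, chr12:42972848-42973060, scored 157.7 and ranked 25. It lay 1487 kb from Lrrn3, a neuronal leucine-rich repeat membrane protein, and 1237 kb from Dnajb9, a chaperone partner of the endoplasmic reticulum, within the noncoding gene Gm33340. No other peak lay within 599 kb of it. Its focus ratio, a fraction that the deposited list gives for each peak, was 0.966 against a median of 0.777 over remote peaks.

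The third peak, at 151.0, lay inside Gpc6, a glypican that carries heparan sulphate on the cell surface, 426 kb from its start and 701 kb from that of Dct, an enzyme of melanin synthesis. A peak with a score of 145.8 lay between Auts2, a chromatin-associated regulator of neural development, and Castor2, 625 and 933 kb away. A peak with a score of 141.1 lay 690 kb from Klf4, a factor of epithelial differentiation, 518 kb from Gm26657, and only 2.4 kb from the start of the noncoding gene 2310081O03Rik. At 138.8, a peak inside the lysine methyltransferase gene Smyd3 lay 391 kb from that gene's start and 328 kb from the start of Kif26b, a kinesin-like protein. A peak far from every coding start can therefore lie inside a long gene.

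Of the last 4 of the 10 highest-scored remote peaks, 1 scored 126.0 inside Kcnma1, the pore subunit of a calcium-activated potassium channel, 357 kb from its start and 1273 kb from Lrmda. A second scored 122.2 between Rspo3, a secreted enhancer of WNT signalling, and Cenpw, a centromere protein, 362 and 303 kb away. Another scored 121.8 at 400.3 kb from Pou3f3, a POU-domain factor, and 1490 kb from Tmem182. The remaining peak scored 116.9 at 450.4 kb from Has2, the hyaluronan synthase of embryonic mesenchyme, and 337 kb from Sntb1, a syntrophin. A forkhead core was present in 9 of the 10, against 74.6% of all remote peaks. Remote peaks filled 11 of the 100 highest ranks of the autosomal list, which is near their 10.9% share of the whole autosomal list.

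Remote sequence was thinly occupied. It spanned 459 Mb without assembly gaps, 19.1% of the autosomes, and held 6.02 peaks per Mb (Poisson 95% interval 5.80 to 6.25, counting error only). The rest of the autosomes held 11.7 per Mb (11.5 to 11.8), so the density ratio was 0.517. Density was nearly level from 50 kb out to 300 kb, with 12.3 peaks per Mb at 50 to 100 kb and 11.5 at 100 to 300 kb. It was 8.09 at 300 to 500 kb (1596 peaks), 5.40 at 500 to 1000 kb (976 peaks) and 2.34 beyond 1000 kb (189 peaks). The intervals of the 3 remote bins did not overlap.

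**Figure D1:**
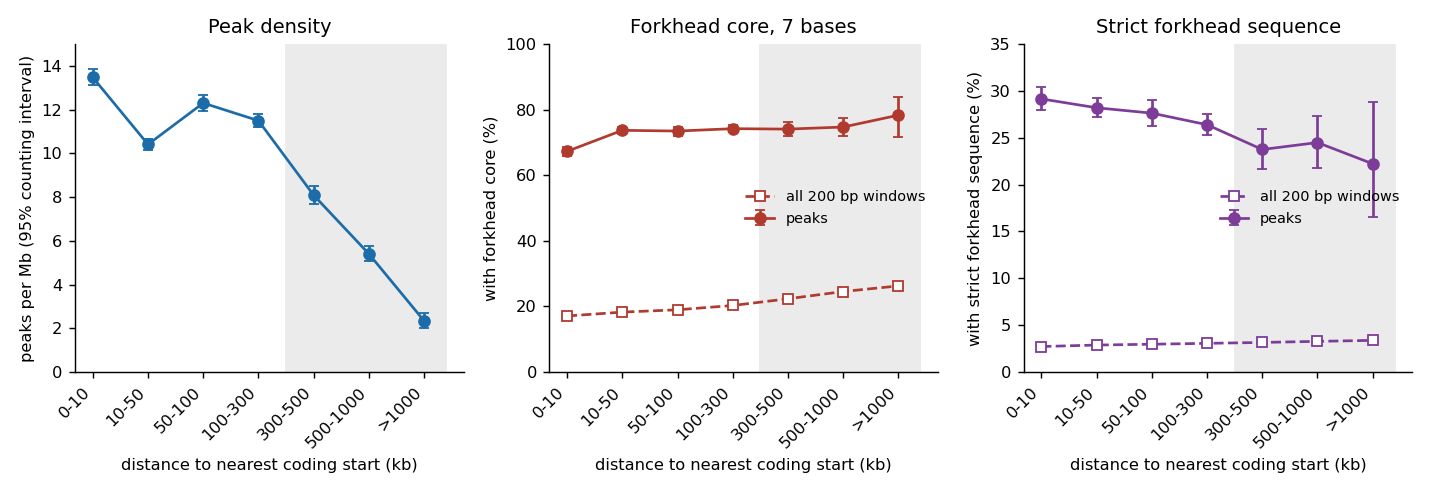
Peaks per Mb of gap-free sequence (left), share of peaks with a forkhead core (middle) and share with the strict forkhead sequence (right), against distance to the nearest coding start in kb. Bars are 95% intervals for counting error, open squares are all 200 bp windows of the same sequence, and grey marks remote distances. Density is 11.5 per Mb at 100 to 300 kb and 2.34 beyond 1000 kb, while the core share of peaks stays between 74.1 and 78.3% over the grey bins.

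Distances of the remote peaks to their nearest coding start had a median of 456 kb and an upper quartile of 625 kb. More than 500 kb from every start lay 1165 peaks (42.2%), and 5 peaks were beyond 2000 kb. The farthest, with a score of 26.4 and 1 core, lay 2391 kb from Pcdh9 and 3026 kb from Pcdh20, which encode protocadherins, and no other peak was within 878 kb. The next lay 2389 kb from Aga, between Tenm3, a teneurin adhesion protein, and that gene. Of the 5 peaks, 4 held a core. Just inside the limit, the 133 peaks at 300 to 310 kb had a median score of 16.5 and cores in 71.4%. Just outside it, the 124 peaks at 290 to 300 kb had a median score of 19.3 and cores in 74.2%.

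Not every member lay between genes. Outside every protein-coding gene body lay 2301 remote peaks (83.3%), and 460 (16.7%) lay inside one, against 52.4% of the other autosomal peaks. A centre in an exon of a protein-coding gene was found for 6 remote peaks. The 460 sat in 117 host genes or overlapping pairs of genes. Lrmda held 25 remote peaks, and 22 lay in Wwox, an oxidoreductase gene. Macrod2, a macrodomain protein gene, held 17, followed by Gpc6 with 15 and Rad51b, a DNA repair gene, with 13. Remote peaks inside and outside coding genes held cores in 74.8% (95% interval 70.6 to 78.7) and 74.5% (72.7 to 76.3) and had median scores of 16.2 and 16.7.

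Starts of lncRNA genes, at a median distance of 127 kb, were farther from remote peaks than from the other peaks (57.3 kb). In the body of a lncRNA gene only lay 302 remote peaks (10.9%, against 7.16% of the others), which left 1999 (72.4%) outside both classes of gene. These are shares of all peaks, and the other peaks lay inside coding genes more often. Among peaks outside every protein-coding gene the order was reversed, with 13.12% of remote and 15.02% of other peaks inside a lncRNA gene. Within 1 kb of a lncRNA start lay 46 remote peaks (1.67%), against 3.61% of the other peaks. The highest-scored of the 46, at 60.4, lay 0.527 kb from such a start between Camk1g and Plxna2. Counting lncRNA starts in the distance as well left 676 remote peaks (24.5%) more than 300 kb from any start.

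Forkhead sequences were concentrated at the centres of remote peaks. The core was present in 2059 of the 2761 central windows (74.6%), in 22.8% of equally wide windows centred 2000 bp before or after, and in 23.9% of all 200 bp windows of remote sequence. The difference between centre and flank passed the exact McNemar test on both sides (larger p = 2.94e-291). The strict sequence was present in 660 centres (23.9%), against 3.30% of flanks (larger exact McNemar p = 1.28e-112) and 3.25% of all remote windows. The other peaks showed the same contrast, and a larger one. Their centres held the core in 72.3% and their flanks in 17.8% (4.06 times, against 3.27 times in remote peaks). For the strict sequence the other peaks had 27.8 and 3.04% (9.15 times, against 7.25 times in remote peaks). Most remote peaks with a core held 1 match (1309 peaks), 561 held 2, and 189 held 3 or more. Of the 3104 matches, 52.0% lay within 20 bp of the centre, against 58.9% of matches in the other peaks.

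Remote peaks carried the strict sequence less often than the other peaks. Its share was 23.9% against 27.8%, an odds ratio of 0.814 (95% interval 0.742 to 0.893, 2-sided Fisher's exact test, adjusted p = 2.77e-05, Benjamini-Hochberg over 8 properties). The odds ratio was 0.876 (exact test, adjusted p = 0.0222) against the 5847 peaks at 100 to 300 kb. Within deciles of GC content it was 0.877 by the Mantel-Haenszel test (n = 2761 remote peaks, adjusted p = 0.0226). With 1 remote peak per stretch and 1 other peak per interval between coding starts it was 0.841 and no longer passed the exact test (adjusted p = 0.171). The broader core went the other way, at 74.6% against 72.3% (odds ratio 1.13, 1.03 to 1.23, exact test, adjusted p = 0.0171). This did not hold against the peaks at 100 to 300 kb (1.02, exact test, adjusted p = 0.711), and it turned to 0.922 within GC deciles (n = 2761, adjusted p = 0.149).

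Base composition separated the remote peaks more than any other of the 8 properties. GC content above the list median of 43.5% was found in 25.5% of remote peaks and in 51.6% of the others (odds ratio 0.321, 0.294 to 0.351, Fisher's exact test, adjusted p = 4.5e-153). The medians were 40 and 44%. The surrounding sequence moved the same way, at 38.4% GC in remote sequence and 42.8% elsewhere, and its part in the difference was not tested. Against peaks at 100 to 300 kb the odds ratio was 0.518. Repeats were sparse under the peaks, with 14.2% of the bases of remote windows soft-masked against 39.1% of remote sequence. The same held for the other peaks, at 12.9% against 32.2% of their sequence. Mostly masked windows were 3.91% of remote and 3.06% of other peaks (odds ratio 1.29, exact test, adjusted p = 0.024). Within GC deciles this no longer passed (1.04, n = 2761, adjusted p = 0.717).

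The scores of remote peaks overlapped those of the others almost entirely. They ran from 10.1 to 169.7 with quartiles of 12.4 and 25.6 around a median of 16.6, and the others had a median of 16.1 and a maximum of 243.9. A score above the list median was found in 51.8 and 49.5% (odds ratio 1.10, exact test, adjusted p = 0.0274), which turned to 0.982 against peaks at 100 to 300 kb (adjusted p = 0.711). The highest decile of the list held 9.38% of remote and 10.1% of other peaks (odds ratio 0.918, 0.802 to 1.05, exact test, adjusted p = 0.227), and the odds ratio was 0.722 (adjusted p = 0.0064) for peaks beyond 500 kb. Focus ratios above the median were found in 47.5 and 50.2% (odds ratio 0.896, exact test, adjusted p = 0.0138). This did not hold within GC deciles (0.918, n = 2761, adjusted p = 0.0869).

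**Figure D2:**
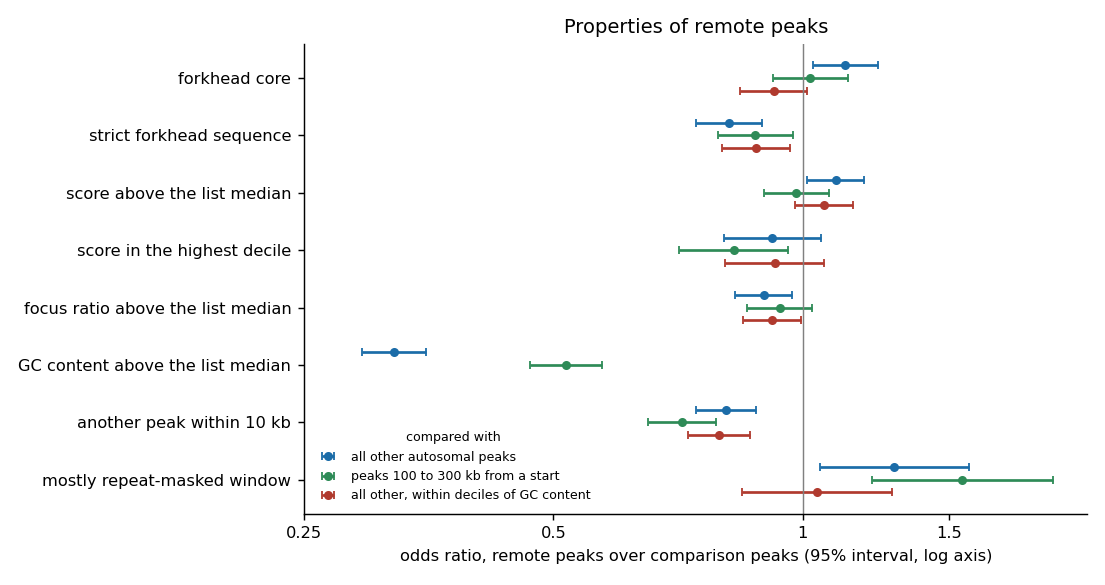
Odds ratios of 8 properties in remote peaks with 95% intervals on a log axis, against all other autosomal peaks, against peaks at 100 to 300 kb, and against all others within deciles of GC content. GC content lies farthest from 1 at 0.321, and the strict forkhead sequence lies below 1 in all 3 comparisons (0.814, 0.876 and 0.877).

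Among the remote peaks themselves, those in the highest score decile held a core in 83.0% (259 peaks, 95% interval 77.9 to 87.4) and those below the list median in 70.3% (1318 peaks, 67.7 to 72.7). Peaks without a core numbered 702, with a median score of 15.1 against 17.5 for those with one. Of these 702 peaks, 44 were in the highest decile. Peaks with a neighbour within 10 kb had a core in 69.5% and a median score of 17.8. These splits are descriptions, since the deposited score also set which peaks entered the list.

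For 24 other recognition sequences, 14 (58.3% of those tested) differed between remote and other peaks at an adjusted p of up to 0.05 by Fisher's exact test, 9 being more frequent (37.5%) and 5 less frequent (20.8%). Within deciles of GC content 4 differed (16.7%). The 9 more frequent were the letters of POU factors, homeodomain, SOX, GATA, PAX/HOX, CEBP, TCF/LEF and TALE proteins and the E-box CATCTG. The words were ATGCAAAT for POU, TAATTA for homeodomains, ACAATG for SOX, AGATAA for GATA factors, TTTATNG for PAX/HOX, TTGCNNAA for CEBP, CTTTGA for TCF/LEF and TGACAG for TALE, and both strands were searched. The PAX/HOX word can overlap a forkhead core. Of these 9, POU, homeodomain and GATA letters were rarer in remote peaks than in all 200 bp windows of remote sequence (0.741, 0.840 and 0.808 times as frequent). SOX, PAX/HOX, CEBP and TCF/LEF letters were 1.09 to 1.16 times as frequent as there, and TALE letters 1.68 times. The 10 that did not pass were GGAATG for TEAD, CAGACA for SMAD, TTGGCA for NFI, TGTGGT for RUNX, AGGTCA for nuclear receptors, TGACTCA for AP-1, TTCNNNGAA for STAT and GACCACCCA for GLI proteins, besides the consensus sequences of MEF2 and EBF. The AP-2 letters GCCNNNGGC were found in 2.61% of remote and 5.62% of other peaks.

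The E-box CATCTG, recognised by basic helix-loop-helix factors such as TWIST1, was the 1 sequence more frequent in remote peaks that also passed within GC deciles. It was found in 31.7% of remote and 27.5% of other peaks (odds ratio 1.22, 1.12 to 1.33), and the GC-stratified odds ratio was 1.14 (n = 2761, adjusted p = 0.0242). It was 2.24 times as frequent in remote peaks as in all 200 bp windows of remote sequence. The E-box CAGCTG was less frequent in remote than in other peaks, at 17.0 against 18.9% (exact test, adjusted p = 0.0262). It nevertheless was 3.22 times as frequent as in all remote windows, and its GC-stratified odds ratio was 1.11 (n = 2761, adjusted p = 0.222).

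Sequences of promoter-binding and insulator proteins were less frequent in remote than in other peaks. The distance rule leaves promoters out by construction, whereas the other peaks include 5291 within 10 kb of a coding start. A lower share of promoter sequences is therefore built into the comparison. The SP/KLF word CCCGCCC was found in 12 remote peaks, 0.435% against 3.64% of the others (odds ratio 0.115, GC-stratified 0.460 with n = 2761 and adjusted p = 0.0467). ETS letters CCGGAA were found in 30, 1.09 against 3.43% (odds ratio 0.309, GC-stratified 0.560 with n = 2761 and adjusted p = 0.0242). The core of CTCF, which holds chromatin loops, was found in 16, 0.580 against 1.53% (odds ratio 0.375, GC-stratified 0.443 with n = 2761 and adjusted p = 0.0242). CTCF letters were still 16.9 times as frequent in remote peaks as in all remote windows, where 0.0342% held them. SP/KLF letters in remote peaks were at 1.02 times the level of all remote windows, and ETS letters at 1.10 times.

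**Figure D3:**
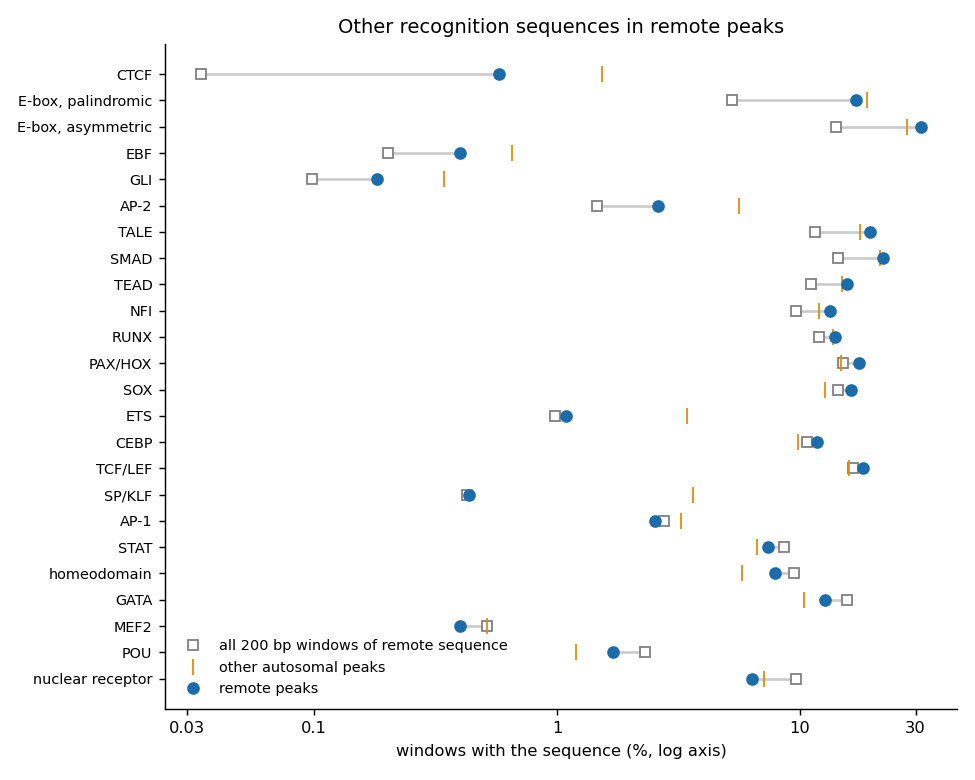
Share of 200 bp windows (percent, log axis) with each of 24 recognition sequences in remote peaks (filled circles), other autosomal peaks (ticks) and all windows of remote sequence (open squares), ordered by the ratio of the first to the last. The asymmetric E-box, CATCTG, is at 31.7% in remote peaks and 14.1% in all windows, and ticks of the ETS and SP/KLF letters lie well to the right of the remote peaks.

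Remote peaks were spread unevenly over the deserts. A stretch of remote sequence lies between neighbouring coding starts more than 600 kb apart, and the autosomes have 718 such stretches, 7 of them at chromosome ends. At least 1 remote peak was found in 490 (68.2%), with a median of 4 in these, and 228 had none. Stretches with a single peak numbered 96, those with 10 or more 85, and those with 20 or more 17. The 10 stretches with the most peaks, with Nrsn1-Hdgfl1 taken from a tie at 24, held 302 (10.9%) in 4.01% of remote sequence, and the 50 with the most held 34.8% in 15.7%. Peaks of a stretch share their surroundings and are not independent of each other.

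Long stretches without a peak were few. Of 151 stretches with at least 1 Mb of remote sequence, 6 had none, the longest being the 1.90 Mb between Adam6a and Zfp386. Only genes classed as protein-coding bounded a stretch, so genes of other classes can lie inside one. How well reads can be placed in these stretches was not examined. The median length was 0.532 Mb with peaks and 0.130 Mb without. GC content was 38.3 and 39.1%, and the masked share 38.8 and 41.4%. Over the 483 stretches of at least 0.2 Mb, density ran up to 60.4 peaks per Mb with a median of 4.22. As a description over these stretches, which all come from the 1 list, Spearman's rho of density was -0.55 with the masked share and 0.40 with GC content.

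The largest counts, of 37 remote peaks each, were found between Zeb2 and Acvr2a and between Zfp608 and Gramd3. Zeb2 encodes a zinc finger homeobox repressor of neural crest cells, and Acvr2a a receptor of activins. Their 37 peaks spread over 3.10 Mb of remote sequence on chromosome 2, scored 10.3 to 100.6 with a median of 18.9, and held a core in 28. Of the 37, 18 lay nearer to Zeb2, and the highest was 1070 kb from its start. The Zfp608-Gramd3 peaks filled only 0.810 Mb on chromosome 18, at 45.7 per Mb, and scored up to 63.5, with a core in 25. On the other side of Zfp608, between it and Csnk1g3, lay 22 more in 0.528 Mb (41.7 per Mb).

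Ephrin receptors and ligands flanked 3 of the most occupied deserts. Between Epha7, a receptor of ephrins, and the kinase gene Map3k7 lay 32 peaks with scores up to 67.3, 21 of them with a core. Between the bile acid transporter gene Slc10a2 and Efnb2, an ephrin ligand, lay 29 peaks, and the highest, at 67.8, was 337 kb from Efnb2. Another 29 lay between the anion exchanger gene Slc4a3 and Epha4, with a highest score of only 34.2 and a core in 18. The adhesion receptor gene Adgrl2 had 31 peaks towards the tubulin ligase gene Ttll7, with scores up to 52.5.

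The remaining stretches among those with the most peaks were mixed in kind. Between Lrmda and Kcnma1 lay 29, of which 27 were inside a coding gene. The 28 peaks between Sel1l, a protein of endoplasmic reticulum degradation, and Flrt2, a fibronectin leucine-rich membrane protein of guidance and adhesion, held a core in 26, and 23 were nearer to Flrt2. In the desert between the potassium channel gene Kcnj2 and Sox9, a factor of cartilage and neural crest, lay 26 peaks over 1.12 Mb. They scored 10.2 to 90.4 with a median of 16.0, 18 held a core, and the highest was 370 kb from Sox9 and 1346 kb from Kcnj2. Ties at 24 peaks were Nrsn1-Hdgfl1 and Wwox-Maf, and 22 of the latter lay inside Wwox.

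**Figure D4:**
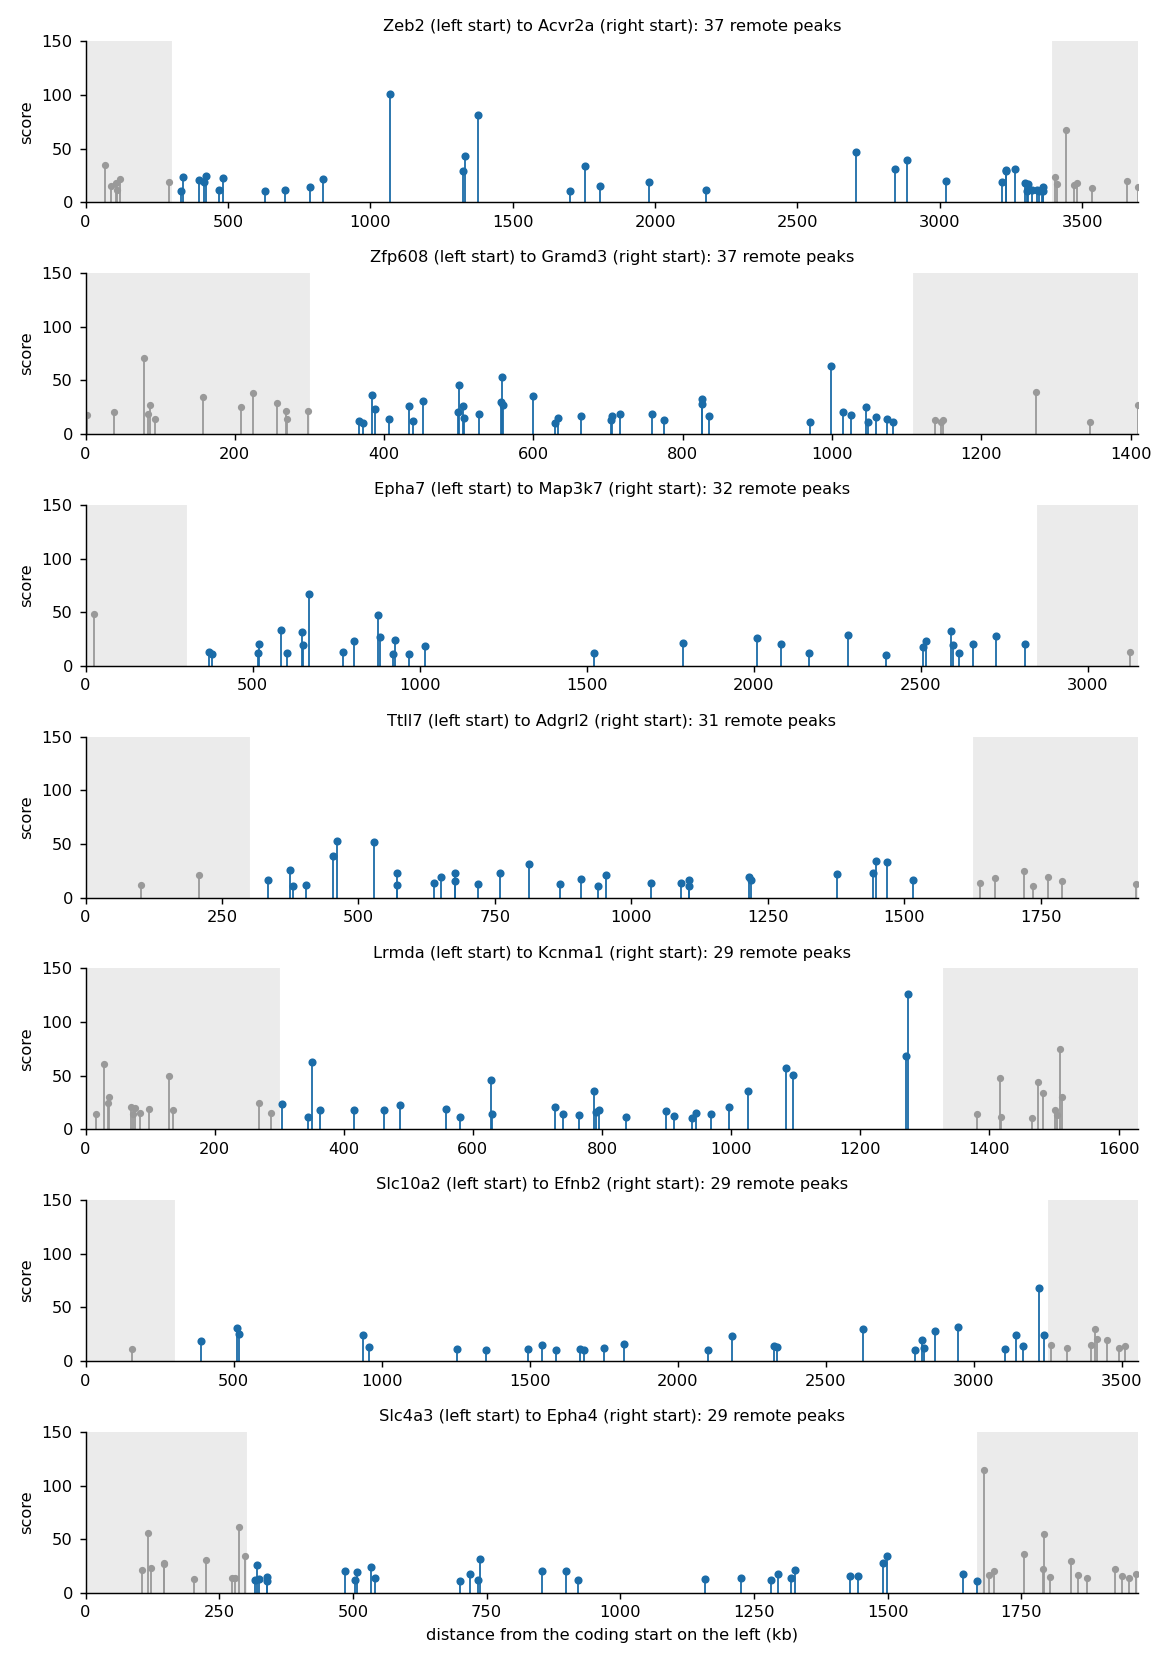
Scores of peaks along the 7 stretches with the most remote peaks (29 to 37 each), against distance in kb from the left coding start. Blue peaks are remote and grey peaks lie within 300 kb of either start (grey bands). Blue peaks spread over the whole of each desert, and the highest is 126.0, between Lrmda and Kcnma1.

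Remote peaks had a close neighbour less often than the others. Another peak lay within 10 kb of 32.5% of remote and 37.4% of other peaks (odds ratio 0.807, 0.742 to 0.878, Fisher's exact test, adjusted p = 2.09e-06), and the nearest peak was at a median of 23.2 and 16.5 kb. Peaks were also thinner in remote sequence, at 6.02 against 11.7 per Mb. The part of this density in the neighbour shares was not tested, so they do not show whether remote peaks cluster less for their density. With 1 remote peak per stretch and 1 other peak per interval between coding starts the odds ratio was 1.06 (exact test, adjusted p = 0.776). Neighbours up to 10 kb apart joined remote peaks into 336 pairs, 46 triples and 19 longer runs, and 1870 stood alone. The longest run had 7 peaks over 33.8 kb between Pkn2 and Lmo4, a LIM-only cofactor, with scores of 10.9 to 110.6 and a core in 3 of them. The peak with the score of 169.7 between Ccdc171 and Bnc2 led a run of 4 over 19.7 kb.

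The genes on both sides were sorted into lists of roles that were written with earlier results of these data known, so their counts are descriptions. At least 1 of 75 craniofacial and mesenchymal transcription factors flanked 39 stretches, of which 34 (87.2%) had a remote peak. These 39 stretches held 307 remote peaks (11.1%) at 16.0 per Mb (Poisson 95% interval 14.2 to 17.8, counting error only). Such intervals, here and for the lists below, take peaks as independent, which peaks of a stretch are not. They do not measure the spread between stretches. Of the 468 stretches with no listed gene on either side, 292 (62.4%) had a peak, at 5.34 per Mb (5.05 to 5.63). GC content was 40.1 and 38.7%, and the masked share 33.2 and 39.8%, and the part of these in the densities was not tested.

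Zeb2 led this list with 37 remote peaks. Sox9 had 29 on both sides together, and Maf, a bZIP factor, had 27. Bnc2 followed with 23 in 0.549 Mb (41.9 per Mb) and Nr2f2, an orphan nuclear receptor, with 22 on both sides. Of the remote peaks beside listed factors of this kind, 70.0% held a core (64.6 to 75.1) and 20.2% the strict sequence (15.8 to 25.1), and 43 (14.0%) were in the highest score decile. The peaks beside no listed gene had 74.1% (71.7 to 76.5), 24.1% (21.8 to 26.5) and 9.28%.

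Other developmental transcription factors, 328 genes, flanked 57 stretches with 260 remote peaks at 9.41 per Mb (8.30 to 10.6), and 77.2% of these stretches had a peak. Cited2, a transcriptional coactivator, had 22 remote peaks, Lmo4 19, and Pou3f3 and the corepressor gene Runx1t1 16 each, followed by Klf6, Nr5a2 and Sox11 with 13 each. Signalling ligands and receptors, 177 genes, flanked 32 stretches with 152 peaks at 9.50 per Mb (8.05 to 11.1), and 71.9% of them had a peak. Acvr2a had 37, shared with Zeb2, and Inhba, an activin subunit, had 15. Tgfbr2, a TGF-beta receptor, had 10, and Bmp2, Erbb4, Fgf9 and Fzd8 had 9 each.

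Adhesion and guidance genes, 219 in all, flanked 124 stretches and the largest number of listed peaks, 757 (27.4%). Their deserts were long, with 149 Mb of remote sequence, and density was 5.07 per Mb (4.71 to 5.44). A remote peak was found in 79.0% of their stretches. Adgrl2, a latrophilin, had 52 remote peaks on both sides together, Flrt2 43, Epha7 41 and Cdh11, a mesenchymal cadherin, 30. Efnb2 and Epha4 had 29 each. Chemosensory receptor genes, 1461 in all, flanked 3 stretches with 3 remote peaks. Stretches can carry listed genes of several roles, so these counts overlap.

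**Figure D5:**
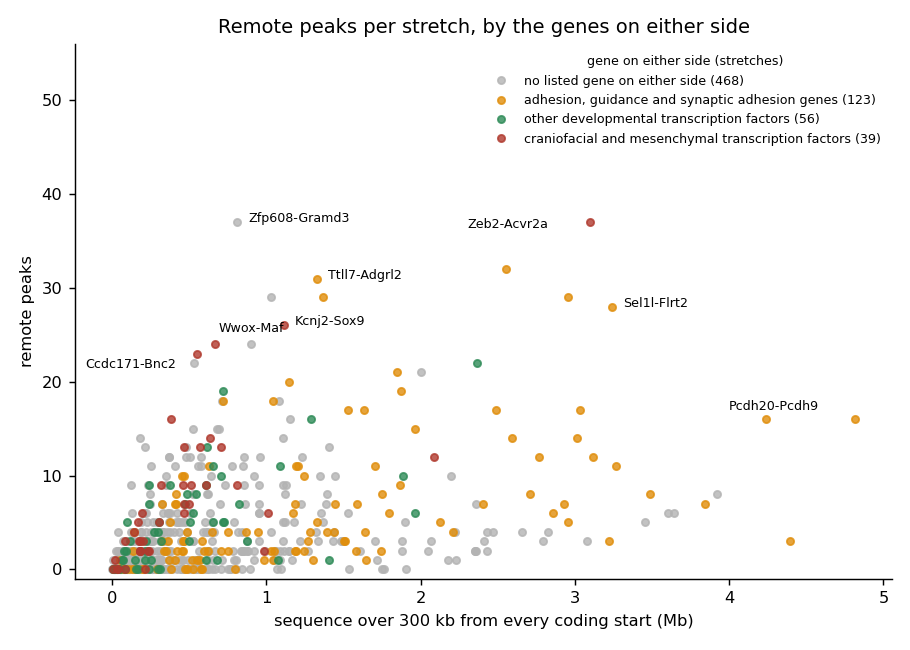
Remote peaks per stretch against its remote sequence in Mb, coloured by the listed gene on either side. Stretches whose only listed genes are signalling or chemosensory genes are not drawn. A stretch that fits several lists is coloured as a craniofacial and mesenchymal factor first, then as another factor. Ccdc171-Bnc2 has 23 peaks in 0.549 Mb, and Zeb2-Acvr2a has 37 in 3.10 Mb.

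Among the remote peaks, 1263 (45.7%) lay upstream of the start of the nearer gene and 1498 on the side of its body. These counts include the 460 remote peaks inside coding genes. No such share was taken for the other peaks or for remote sequence, so a preference for either side is not shown. Remote density per chromosome ran from 3.47 peaks per Mb on chromosome 6 to 9.12 on chromosome 13. The remote share of a chromosome's peaks ran from 5.80% on chromosome 17 to 18.4% on chromosome 14.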

How the data were processed

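Foxf2-FLAG binding was measured by ChIP-seq in 2 anti-FLAG libraries with 1 input. Reads were aligned with Bowtie2 2.4.1 to mm10, handled with SAMtools 1.7.1, and peaks called with HOMER against the input, per the submitters' processing notes and the design text. The HOMER settings and whether the ChIP libraries were pooled were not stated. The deposited Peak Score is the authors' score from HOMER, and the deposited column headed Focus Ratio/Region Size holds a fraction from 0 to 1. From these values the column was read as HOMER's focus ratio. Both describe the 1 list. Peaks are 212 bp from start to end.

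Distances ran from peak midpoints to starts of protein-coding transcripts. Sequence was read from GRCm38.p6, the assembly of mm10. The central 200 bp was searched on both strands, and all gap-free 200 bp windows of the autosomes gave the background. Properties were compared by Fisher's exact test with Benjamini-Hochberg adjustment, strata by Mantel-Haenszel, centres with flanks by the exact McNemar test (Python 3.11.15, SciPy 1.17.1, statsmodels 0.14.6, tested on simulated data).

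Named genes flank the 10 highest-scored remote peaks or the 10 stretches with the most, or are up to 5 leading genes of a list, ties included. Host genes, genes beside the longest run, beside the highest-scored peak at a lncRNA start or on the other side of Zfp608 (Csnk1g3), and those at an extreme of length or distance, were named after their values were seen. The same holds for Efna5, Epha3, Epha5 and Epha6. The members and lists were chosen with earlier results of these data known. Alternatives covered the distance, start sites, comparison peaks, score, gene bodies, GC content, chromosomes and window. Taking the starts of all basic transcripts of coding genes changed no member.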

Additional observations from a re-analysis of the deposited data

How the results depend on the processing

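Of 95 alternative values, 63 kept their direction and their side of the threshold (counts and densities: their size), 14 fell short of it, 3 newly passed it, 9 counts or densities moved and 6 turned direction. The values are odds ratios unless said otherwise. Lower GC content held in 9 of 9 alternatives (0.234 to 0.518), the strict forkhead sequence in 10 of 11 and the neighbour within 10 kb in 9 of 10. All these counts include the setting with starts of all basic transcripts of coding genes. That setting left the same 2761 remote peaks and repeated the main values, so it could not test the choice of coding starts.

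With the limit at 200 kb there were 4557 remote peaks (7.14 per Mb), and mostly masked windows gave 1.11. At 500 kb there were 1165 (4.46 per Mb), with 0.988 for scores above the median, 0.722 for the highest decile and 0.939 for the focus ratio. Against peaks at 100 to 300 kb the core gave 1.02, scores above the median 0.982, the highest decile 0.825 and the focus ratio 0.937, and 4 other sequences differed. Against other peaks over 10 kb away the values were 1.04 for the core, 1.04 for scores above the median and 0.861 for the highest decile. In the higher-scored part of the list were 1443 remote peaks (3.15 per Mb), with 1.003 for the core and 1.30 for masked windows. With the highest-scored peak of each stretch alone, which selects on score by construction, 490 remote peaks were left. The comparison peaks were also cut to 1 per interval between coding starts, which left 7685. The strict sequence gave 0.841, scores above the median 3.03, the highest decile 1.957, the focus ratio 0.998, a neighbour 1.06 and masked windows 0.994. Within GC deciles the core gave 0.922, scores above the median 1.06, the focus ratio 0.918 and masked windows 1.04, and 4 other sequences differed. A 100 bp window gave 1.04 for the core. Counting lncRNA starts, chosen after seeing the data, left 676 peaks. The cause of these shifts was not tested.

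GC content was not compared within its own deciles. Leaving out a library was not possible because the list has no columns for libraries. No paired analysis was possible because the same holds for replicate numbers. The unknown depth limits how far a missing peak can be read.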

Other observations

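The repeat unit under the chr12 peak with the score of 157.7 holds the word GCTGTCC, chosen after that window was read. Searched on both strands, it was in 63 of the 2761 remote peaks (2.28%), in 2.17% of windows 2000 bp before them and 2.61% of windows 2000 bp after them, and in 3.58% of the other autosomal peaks. Of the remote peaks, 10 had a focus ratio of at least 0.9 and no forkhead core, and the word was in 4 of these 10. The chr12 peak that gave the word is 1 of the 4, and without it the count was 3 of 9. It was in 3 of the 69 with a focus ratio of at least 0.9 and a core (4.35%). The 10 peaks had a median score of 28.6 and the 69 a median of 25.7. The word and the limit of 0.9 were both picked with these values in view, so no test is given.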
